A study of Homo sapiens with 5 samples.

Results

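The genes described here encode intermediate filament proteins: peripherin (PRPH), the neurofilament subunits NEFL, NEFM and NEFH, alpha-internexin (INA), nestin (NES), vimentin (VIM), synemin (SYNM), and the nuclear lamins LMNA and LMNB1. Every probe set that the platform annotation pairs with 1 of these 10 genes alone was taken, which gave 21 of the 54675 probe sets on the array, for 10 of the 19775 genes it names, and 0 further probe sets were shared with another gene. The cells were IMR32, an established human neuroblastoma line, with a stably integrated hairpin construct (shRNA) that doxycycline switches on and that targets MEIS1, a homeobox transcription factor gene. Total RNA was hybridised to 5 Affymetrix U133 Plus 2.0 arrays: 1 before doxycycline (0 h) and 1 each after 24, 48, 96 and 192 h of it. All 5 samples carried the hairpin, which the labels call specific for the MEIS1b isoform. The labels do not say whether the transfected cells were a clone or a pool. Cells held without doxycycline to the later times, and cells given doxycycline without the hairpin, were not analysed here, so time in culture, doxycycline and the hairpin cannot be told apart. With 1 array per time point, no difference between arrays has a replicate check.

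Intermediate filaments are rope-like polymers of coiled-coil proteins that give cells and nuclei mechanical strength. Immature neurons and progenitors carry vimentin and nestin, and as neurons mature they build filaments of peripherin, alpha-internexin and the neurofilament subunits, which fill axons and set their calibre. Peripherin is found mainly in neurons of the peripheral nervous system, including the sympathetic lineage from which neuroblastoma arises. Lamins form the meshwork under the inner nuclear membrane, and LMNB1 is a lamin of most dividing cells.

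The promoters of PRPH and INA are shown because both genes rose over the course. The RefSeq promoter table (build GRCh38.p14, 250 bases before to 50 after each annotated start) held 10 promoters for 7 of the 10 genes. NEFL, NEFM and NEFH were not matched. Each sequence runs 5′ to 3′ on the plus strand, and capitals mark the TATA box TATAAA. PRPH lies at chr12:49294897-49295196 and INA at chr10:103276888-103277187.
PRPH: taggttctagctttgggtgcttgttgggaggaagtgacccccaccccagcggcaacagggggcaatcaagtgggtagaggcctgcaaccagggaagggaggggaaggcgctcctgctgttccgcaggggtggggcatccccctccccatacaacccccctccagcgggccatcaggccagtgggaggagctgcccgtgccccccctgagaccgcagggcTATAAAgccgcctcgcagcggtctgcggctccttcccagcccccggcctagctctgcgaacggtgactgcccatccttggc
INA: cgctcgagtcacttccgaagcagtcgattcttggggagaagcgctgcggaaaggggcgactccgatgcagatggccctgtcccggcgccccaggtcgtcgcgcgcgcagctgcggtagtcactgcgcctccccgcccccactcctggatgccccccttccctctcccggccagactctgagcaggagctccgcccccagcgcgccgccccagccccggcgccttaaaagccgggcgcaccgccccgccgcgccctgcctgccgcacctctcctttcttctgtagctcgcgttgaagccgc
The motifs searched, on both strands, were the core TGACAG bound by MEIS factors, TATAAA and CCAAT. PRPH had TATAAA with its first base 31 bases before the start, and it was the only 1 of the 10 promoters with this motif, which 11.5% of 35116 promoters of the same length held. INA had none of these motifs. TGACAG was in 0 of the 10 promoters and in 15.8% of all promoters. CCAAT was in 3 of the 10, in 1 promoter each of LMNA, LMNB1 and SYNM, and in 34.6% of all. A match is a string of letters, not a measured binding site. PRPH's promoter was 67.0% G or C and INA's 71.3%, against a median of 58.7% over all promoters.

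The values were MAS5 signals, a summary of the probe pairs of each probe set after subtraction of a mismatch-based background. Between 5.34% and 8.15% of all probe sets lay at the floor of 1 on each array, and the median signal ran from 16.0 to 19.0. The 24 poly-A spike-in probe sets, a control added to the RNA, read 0.10 higher in log2 at 24 h than at 0 h, and -0.46, -0.63 and -0.25 at 48, 96 and 192 h. MEIS1 was below its 0 h signal on all 4 induced arrays in both probe sets and stood at 74.8% and 74.3% of it at 192 h. In the limma fit described next it had -0.33 ± 0.14 (SE) in log2 and did not pass (adjusted p = 0.251). Of 7 adrenergic neuroblastoma markers on the array 6 were bright enough to test, with a summed signal of 8806 to 11037. MYCN lay between 3957 and 4418, while TH, tyrosine hydroxylase, was low (2.1 to 28.5). Schwann, blood and endothelial, and epithelial markers summed to at most 41.7, 70.1 and 57.1 on any array.

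Changes were tested as a straight line over the 5 arrays, with the times as equal steps, in limma. Signals were first turned into log2(signal + 4.7), a scale that understates changes of dim genes. The fitted change is that of the line from 0 to 192 h, and a gene rose or fell where the Benjamini-Hochberg adjusted p was under 0.05 over all 11944 genes, each represented by its brightest probe set. The probe sets were also fitted separately, over the 26805 whose signal averaged 17.9 or more.

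Of the 10 genes, 9 passed the signal filter, a mean of 17.9 over all arrays, and the brightest probe set of each was above that value on every array. Peripherin, NEFM, NEFL and INA rose, 4 of 9 tested, against 2.02% of all genes tested, and 0 of 9 fell, against 1.46%. At an unadjusted p under 0.05 the limma counts were also 4 up and 0 down, against 1007 up and 1021 down of all 11944 genes. The median fitted log2 change of the 9 genes was 0.51, against 0.0027 over all genes. The genes were chosen with earlier results of these data known, and PRPH was already reported as rising. Neither its call nor the counts and median of the group are independent support. Among probe sets, 2 of the 17 tested rose, those of PRPH and NEFM, against 1.09% of all probe sets, and 0 fell, against 0.742%. In bulk RNA, more cells that express a gene and more RNA per cell cannot be told apart.

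PRPH, the peripherin gene, had the largest change of the group. Its probe set read 599.3 before doxycycline, then 1093, 1529, 2307 and 2237 at 24, 48, 96 and 192 h. Each of the first 4 arrays was brighter than the one before it, and the last 2 were close. The ratios to 0 h on the scale with the offset were 1.82, 2.54, 3.83 and 3.71, so most of the increase lay between 0 and 96 h. The step from 96 to 192 h was -0.044 in log2. Over the course the fit gave a log2 change of 1.94 ± 0.22 (SE, n = 5 arrays), or 3.85-fold, with a 95% interval of 1.47 to 2.41 and a limma adjusted p of 6.2e-04. Only 0.26% of all tested genes had a higher fitted change. PRPH rose also without each array in turn and with the spike-in level as a covariate. With no filter on low signals, when 19775 genes are tested, the change was the same and the limma adjusted p was 0.0671.

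**Figure D1:**
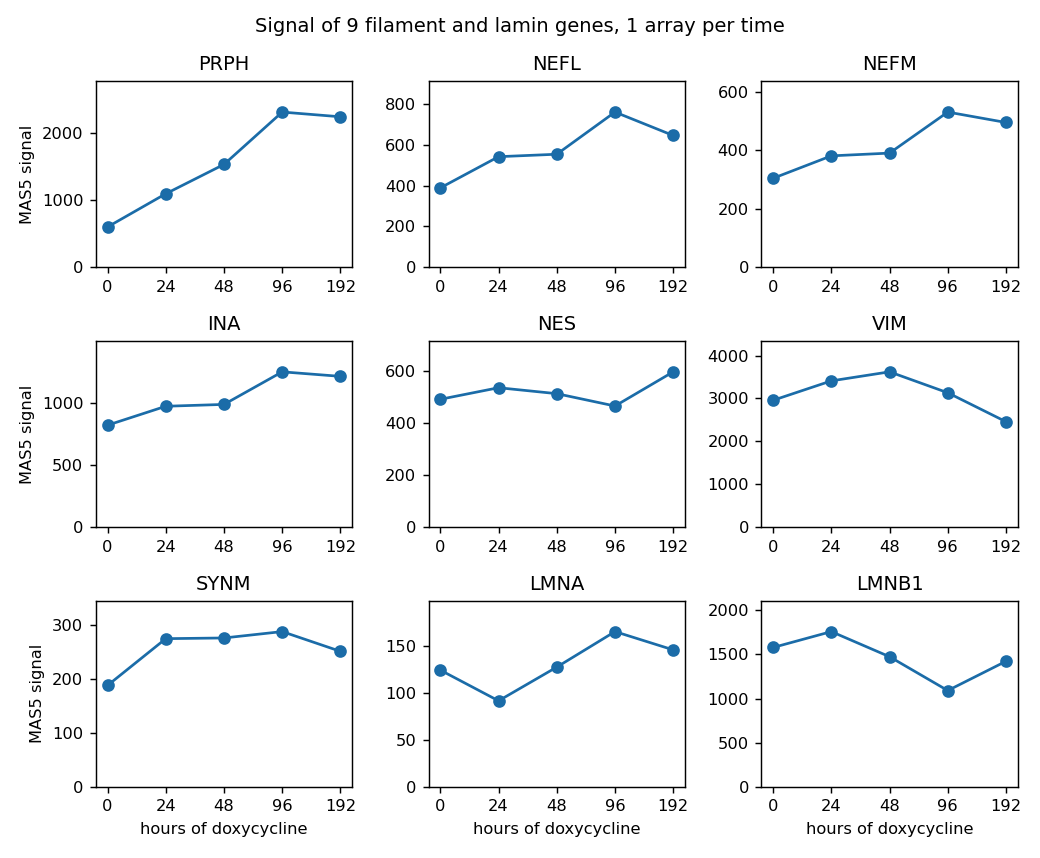
MAS5 signal (vertical axis, linear, from 0) of the brightest probe set of each of the 9 tested genes against hours of doxycycline (horizontal axis, equal steps), with 1 point per array and no error bars because each time has 1 array. PRPH climbs from 599.3 to 2307 at 96 h; NEFL, NEFM and INA climb less and are also highest at 96 h; LMNB1 is lowest at 96 h.

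NEFL, NEFM and INA, whose proteins co-assemble in axonal filaments, rose less than 2-fold. NEFL, the light chain that forms the filament core, read 389.0, 541.9, 553.9, 760.5 and 645.8 at 0, 24, 48, 96 and 192 h. All 4 induced arrays were above 0 h, and 24 and 48 h were nearly level. Its line rose by a log2 change of 0.77 ± 0.18 (SE), or 1.71-fold, with a limma adjusted p of 0.0402 among genes and 0.0637 among probe sets. The other 2 NEFL probe sets had changes of 0.44 ± 0.18 and 0.52 ± 0.23 (adjusted p = 0.304 and 0.353), both positive and neither past the threshold. One of them, 221805_at, went from 241.5 to 361.0 at 96 h and 308.4 at 192 h, a course like that of the brightest probe set. The other, 221801_x_at, of a class that can cross-hybridise, went from 77.9 at 0 h to 125.6 at 192 h with little change to 96 h (91.3).

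NEFM, the medium chain, whose tail projects from the filament, read 304.3, 381.0, 390.4, 530.7 and 495.1. It had the same order of arrays as NEFL, with 0 h lowest and 96 h highest. The log2 change of the fit was 0.74 ± 0.16 (SE), or 1.68-fold, with a limma adjusted p of 0.0249 among genes and 0.0423 among probe sets. Its second probe set, 223902_at, lay at or near the floor (1.0 to 3.1) and was not tested. INA, alpha-internexin, read 820.2, 972.6, 987.4, 1250 and 1213, again with 0 h lowest and 96 h highest. Its fitted log2 change was 0.59 ± 0.14 (SE), or 1.51-fold, with a limma adjusted p of 0.0363 among genes and 0.062 among probe sets.

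These 3 calls depended on single arrays and on the scale. Without the 0 h array the fitted log2 changes were 0.48 for NEFL, 0.62 for NEFM and 0.52 for INA, with limma adjusted p-values of 0.455, 0.264 and 0.316. Without the 96 h array they were 0.64, 0.64 and 0.52 (0.0954, 0.0684 and 0.0991). NEFL was also lost without the 48 h array (0.0514), and INA without the 24 h (0.0608) or the 192 h array (0.0519). With array medians set equal the adjusted p was 0.0835 for NEFL, 0.0854 for NEFM and 0.149 for INA, and with hours in place of steps 0.218, 0.118 and 0.121. With the spike-in level as a covariate it was 0.225, 0.146 and 0.132; the part of the spike-in shift in these changes was not tested beyond this fit. NEFL at the mean of its probe sets had 0.58 (adjusted p = 0.075). The fitted change was positive for the 3 genes in all 13 alternatives.

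NEFH, the heavy chain, abundant in large mature axons, was too dim to be tested. Its brighter probe set, 204412_s_at, read 2.9, 12.8, 4.5, 13.6 and 7.5, and 33767_at read 3.9, 8.0, 6.1, 1.3 and 6.9. Both were under the filter. The arrays other than 96 h came in the same order in both, from 0 h as the lowest to 24 h, but 96 h was highest in the first and lowest in the second.

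**Figure D2:**
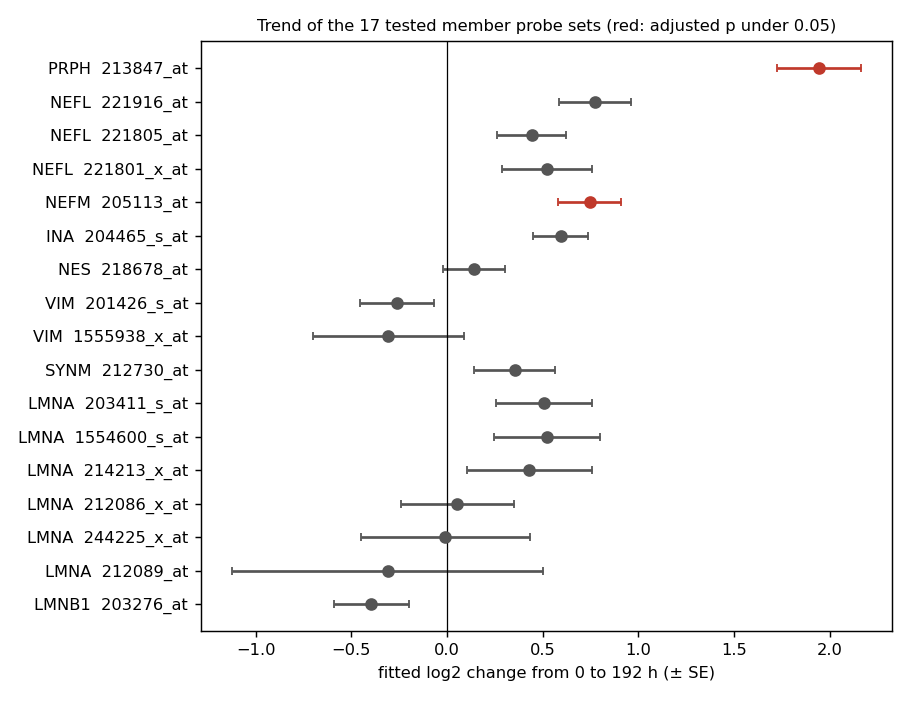
Fitted log2 change from 0 to 192 h (horizontal axis; bars are ± 1 SE of the limma fit) for the 17 member probe sets above the signal filter, with red for an adjusted p under 0.05 over all probe sets. PRPH at 1.94 stands apart, the 3 NEFL probe sets lie between 0.44 and 0.77, and the 6 LMNA probe sets spread from -0.31 to 0.52.

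The filament genes of progenitors did not pass the test. NES, nestin, a large filament protein of neural stem and progenitor cells, read 492.1, 536.7, 513.8, 466.2 and 597.9 in its brighter probe set. It was above 0 h at 24, 48 and 192 h and below it at 96 h. For nestin the fit gave 0.14 ± 0.16 (SE) in log2, with a 95% interval of -0.20 to 0.49 and a limma adjusted p of 0.729. The other NES probe set, 229346_at, was dim: it read 20.5 at 0 h and 2.1 to 7.0 later, and was not tested.

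VIM, vimentin, the main filament protein of mesenchymal and immature cells, read 2957 before doxycycline and 3410, 3621, 3133 and 2457 at the later times. It was highest at 48 h and lowest at 192 h, so a straight line described it poorly. The line through the vimentin values had a log2 change of -0.26 ± 0.19 (SE), with a 95% interval of -0.67 to 0.15 and a limma adjusted p of 0.546. Without the 192 h array it was 0.13. The dim second probe set, 1555938_x_at (21.0 to 31.5), had -0.31 ± 0.39. Fibroblast markers, measured because fibroblasts also carry vimentin, had 4 of 6 genes above the filter. They summed to 688.6, 731.6, 608.8, 347.9 and 201.9, most of it COL1A1, which fell from 584.4 to 115.1. The others above the filter did not pass the test. PDGFRB went from 54.5 at 0 h to 40 at 192 h, COL3A1 from 12.4 to 11.1 and COL1A2, in the other direction, from 9.9 to 17.5. DCN and LUM stayed under the filter, at 19.0 or less. The part of such markers in the vimentin values was not tested.

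SYNM, synemin, which joins vimentin-type filaments to other structures, read 187.8, 274.4, 275.7, 287.5 and 250.9. The 0 h array was the lowest and the 4 induced arrays were close to each other. Synemin had 0.35 ± 0.21 (SE) in the limma fit (adjusted p = 0.436), and -0.13 when the 0 h array was left out.

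No lamin gene passed. LMNA, from which lamins A and C are spliced, had 6 probe sets, all above the filter. The brightest, 203411_s_at, read 123.9, 91.3, 127.1, 164.8 and 145.4, lowest at 24 h and highest at 96 h. Its fitted log2 change was 0.51 ± 0.25 (SE), with a 95% interval of -0.043 to 1.06 and a limma adjusted p of 0.337. It was 0.92 when the 0 h array was left out and 0.17 with the spike-in covariate, and passed in none of the 13 alternatives. The next, 1554600_s_at, had a like change, 0.52 ± 0.28, but differed at 24 h: it read 59.0 at 0 h and 93.2 at 24 h. Probe set 214213_x_at had 0.43 ± 0.33 and followed the brightest one in being lowest at 24 h (40.4). The remaining 3, 212086_x_at, 244225_x_at and 212089_at, had 0.054 ± 0.30, -0.0090 ± 0.44 and -0.31 ± 0.81. The last moved between 6.1 and 39.1. The x_at probe sets are of a class that can cross-hybridise. The LMNA probe sets thus differed in sign, 4 positive and 2 negative, but both negative changes were smaller than their SE. Which of the lamin A and C transcripts each detects was not analysed here.

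LMNB1, lamin B1, read 1578 before doxycycline, then 1758, 1474, 1090 and 1422. It was highest at 24 h and lowest at 96 h, and at 192 h was back to 0.90 of its 0 h level. The fitted log2 change was -0.39 ± 0.19 (SE), with a 95% interval of -0.81 to 0.024 and a limma adjusted p of 0.325. LMNB1 had -0.74 when the 192 h array was left out, -0.22 when the 96 h array was and -0.044 with the spike-in covariate, and passed in none of the 13 alternatives. LMNB2, the other B-type lamin, which is not among the 10 genes, had 458.4 at 0 h, 522.9 at 96 h and 445.3 at 192 h, with a fitted change of 0.063 ± 0.15 (adjusted p = 0.895).

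Most of the tested genes were highest at 96 h. Of the 9 tested genes 6 had their highest signal there (PRPH, NEFL, NEFM, INA, SYNM and LMNA), where 23.4% of all tested genes had theirs. NES and LMNB1 were at their lowest there, as were 19.6% of all tested genes. VIM was highest at 48 h, as were 17.4%. The 5 genes PRPH, NEFL, NEFM, INA and SYNM were above 0 h on all 4 induced arrays, as were 21.6% of all genes. At 96 h, 5 of 9 were at least 1.5-fold above 0 h (7.47% of all genes) and 0 were at least 1.5-fold below, as was the case at 24, 48 and 192 h (5.67% of all genes at 96 h, and 4.24%, 3.78% and 6.41% at the other times). The 5 were PRPH (3.83), NEFL (1.94), NEFM (1.73), INA (1.52) and SYNM (1.52). At 192 h, 3 of 9 were (6.95% of all genes): PRPH (3.71), NEFL (1.65) and NEFM (1.62). At 24 h (2.80%) and at 48 h (4.19%) only PRPH of the 9 was past 1.5-fold. With array medians set equal, 3 were past 1.5-fold higher at 24 h, 3 at 96 h and 3 at 192 h, and 1 was past 1.5-fold lower at 96 h. These ratios have no test. The arrays at 96 h and 48 h were also those with the lowest spike-in level, and the part of this in the high point was not tested.

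**Figure D3:**
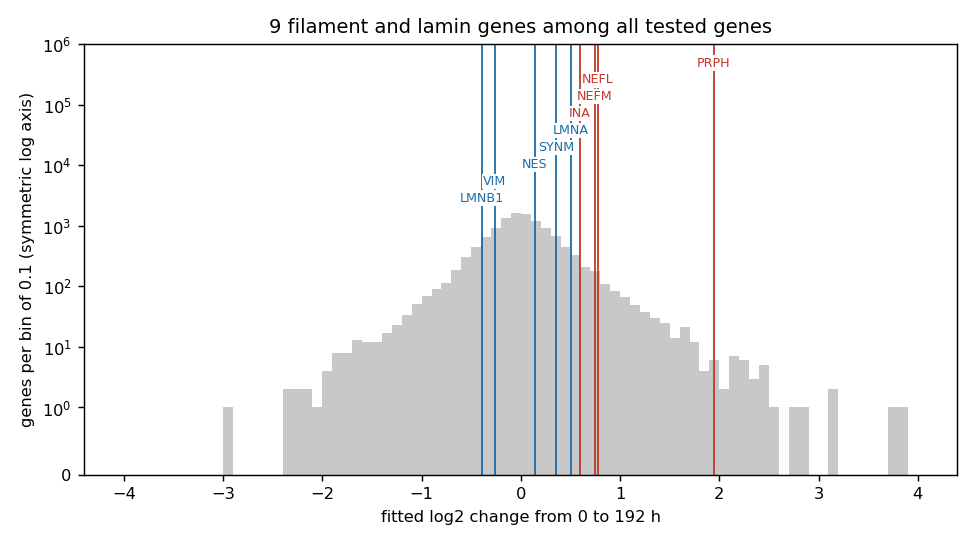
Number of tested genes (vertical axis, symmetric log scale) in bins of fitted log2 change from 0 to 192 h (horizontal axis), with vertical lines for the 9 filament and lamin genes, red for an adjusted p under 0.05. PRPH at 1.94 lies in the right tail, NEFL, NEFM and INA lie between 0.59 and 0.77, and VIM (-0.26) and LMNB1 (-0.39) lie left of 0.

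The 3 pairs of genes fixed for a direct test were compared by the trend in their log2 difference, with an exact two-sided permutation test over the 120 orders of the arrays and adjustment over the 3 pairs. The smallest p this design allows is 0.0167. PRPH moved away from VIM by 0.66, 1.05, 1.85 and 2.16 in log2 at 24, 48, 96 and 192 h. The fitted difference was 2.21 (exact permutation p = 0.0167, adjusted p = 0.05), which is at and not under the threshold. With the p-values of the other pairs as they were, no difference of PRPH and VIM could have given an adjusted p under 0.05. This pair was picked with the rise of PRPH known. LMNA minus LMNB1 was -0.58, 0.13, 0.93 and 0.37 relative to 0 h, with a fitted difference of 0.90 (exact permutation p = 0.217, adjusted p = 0.325). NEFL and NEFM differed by 0.15, 0.15, 0.17 and 0.031, with a fitted difference of 0.029 (exact permutation p = 0.817, adjusted p = 0.817). No difference between the courses of these subunit genes was detected with 5 arrays.

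Genes that work with these filaments were taken from 3 lists. Of all 11944 tested genes, 2.02% rose and 1.46% fell, and the median fitted log2 change was 0.0027. At an unadjusted limma p under 0.05, 1007 of them were up and 1021 down. Of 12 other intermediate filament genes 4 were bright enough to test and 0 passed in either direction (limma; 0 at an unadjusted p under 0.05), with a median fitted log2 change of 0.34. Epithelial keratins KRT7 (22.8 at 0 h, 33.9 at 192 h; 0.52 ± 0.37) and KRT8 (20.5 and 23.0; 0.41 ± 0.43) had the largest changes among them. Both stayed dim, and KRT5 and KRT14 were under the filter.

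Of 15 tested genes for linkers, motors and turnover of cytoplasmic filaments 2 rose and 0 fell in limma, against 2.02% and 1.46% of all genes. At an unadjusted p under 0.05, 6 were up and 1 down, against 1007 and 1021 of all 11944 genes. The median was 0.27. Those 2 were neuronal kinesin heavy chains, motors that carry cargo, neurofilaments among it, along axons. KIF5C read 673.3, 677.7, 839.5, 1285 and 1601, level over the first 24 h and rising at each later array, which gave 1.36 ± 0.17 (SE) in log2 by limma (adjusted p = 0.00176). All 3 of its probe sets had positive changes, and the other 2 gave 1.26 and 1.11 without passing. KIF5A read 80.2, 72.8, 89.6, 149.4 and 157.2 (1.14 ± 0.25, adjusted p = 0.0302), and its other tested probe set had 0.46 ± 0.48. KIF5B, the ubiquitous form, stayed between 1636 and 1684 (-0.010 ± 0.12, limma adjusted p = 0.983; chosen after its values were seen). The call of KIF5A was lost without the 24 h (adjusted p = 0.0649), 96 h (0.0869) or 192 h array (0.136), and it was lost when the spike-in level was a covariate (0.167), at the mean of its probe sets (0.240) and with no filter (0.188). That of KIF5C was lost at the mean of its probe sets (0.0611) and with no filter (0.0671).

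Of 21 tested genes for lamina processing and nuclear envelope partners 0 rose and 0 fell in limma, against 2.02% and 1.46% of all genes. At an unadjusted p under 0.05, 1 was up and 2 were down, against 1007 and 1021 of all 11944 genes. The median was -0.14 and 16 of 21 were negative, against 0.0027 and 5939 of 11944 over all genes. FNTB, a subunit of the enzyme that farnesylates prelamin A and B-type lamins, had the largest change, from a dim 11.7 to 33.0 (1.02 ± 0.44, limma adjusted p = 0.268). SYNE1, nesprin-1, which links the nucleus to the cytoskeleton, had 0.50 ± 0.39 (adjusted p = 0.583). LBR, the lamin B receptor, read 1346, 1165, 998.7, 825.1 and 1082, lowest at 96 h, as were LMNB1 and 19.6% of all tested genes. Its fitted log2 change was -0.45 ± 0.19 (limma adjusted p = 0.242). LBR had -0.93 when the 192 h array was left out (adjusted p = 0.0149), -0.24 when the 0 h array was (0.788) and -0.12 with the spike-in covariate (0.842). LBR was chosen after its values were seen.

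**Figure D4:**
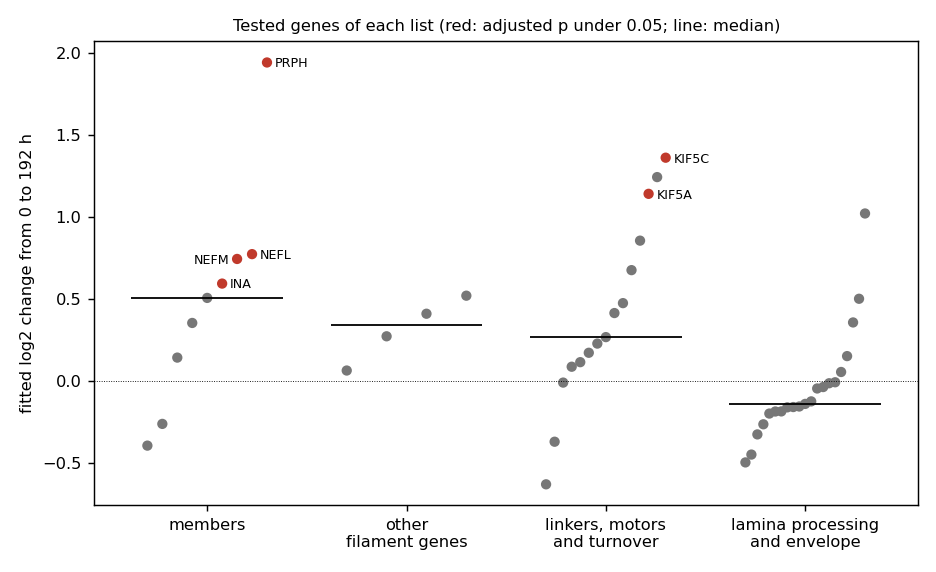
Fitted log2 change from 0 to 192 h (vertical axis) of each tested gene in the 4 lists (horizontal axis), with the list median as a line and red for an adjusted p under 0.05. The called genes are PRPH, NEFL, NEFM and INA among the 9 members and KIF5A and KIF5C among the linkers and motors; the envelope list is centred at -0.14.

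The courses nearest to those of the 4 genes that rose were found by the Euclidean distance between log2 values over the 5 arrays, each gene centred on its mean. For PRPH they were SCUBE1 (distance 0.20; 49.9 at 0 h to 182.3 at 192 h), a secreted and membrane EGF-repeat protein, SCN3B (0.23; 74.7 to 299.4), a sodium channel beta subunit, and DDC (0.26; 150.4 to 615.6), the enzyme that makes dopamine. All 3 rose as well, but they were picked for a course like that of PRPH. For NEFL they were STK36 (0.10), SLC39A3 (0.12) and ERVK13-1 (0.14), none of which passed (limma adjusted p from 0.131 to 0.2). For NEFM they were SLC27A3 (0.041), H1-2 (0.048) and DUSP26 (0.063), of which DUSP26, a phosphatase, rose (135.9 to 224.9; 0.77 ± 0.18, adjusted p = 0.037). For INA they were HACL2 (0.057), RAB11FIP2 (0.074) and CERT1 (0.076), none past the threshold (adjusted p from 0.072 to 0.113). The distances are a description over 5 arrays, and the calls of genes picked by them are no separate support.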

How the data were processed

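Total RNA of 5 samples was measured on Affymetrix U133 Plus 2.0 arrays. MAS5 and GCOS are named in the submitters' processing notes; versions, scaling target and log step are not stated there. The deposited table was taken to hold log2 MAS5 signals of the authors: undoing the log gave multiples of 0.1 (tolerance 0.01) in 100% of cases, with 1 as the lowest signal. Signals were made linear, an offset of 4.7 (median over arrays of the 25th percentile) was added and log2 taken. Of 54675 probe sets 62 controls were left out of tests; 41091 had 1 gene in GEO's platform annotation, 1801 several and 11721 none. Gene identifiers of 41037 were in RefSeq's GRCh38.p14 table, which changed 0 symbols. The data name no build, so coordinates are given only for RefSeq promoters. The filter was a mean signal of 17.9, the median of all signals.

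The test was limma 3.58.1 (R 4.3.3), lmFit and eBayes with a mean-variance trend (residual degrees of freedom 3, prior 9.07), checked on simulated data. The number of arrays limits the precision, and the p-values measure scatter of 5 arrays around a line. Alternatives were other offsets, no filter, other scalings, hours, a spike-in covariate, the mean of probe sets and leaving out each array. All members are named; of each partner list the genes past the threshold are, or the 2 largest changes, and the 3 nearest courses of members that rose. Members and lists were chosen with earlier results of these data known.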

Additional observations from a re-analysis of the deposited data

How the results depend on the processing

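The count of the 9 genes that rose was 4 in the reported fit. It was 0 with no filter on low signals, 1 with array medians set equal, 1 with hours in place of steps and 1 with the spike-in covariate, and 1 to 3 when each array was left out in turn. Of the probe sets 2 rose; the count was 0 with no filter, 1 with array medians set equal, 0 with hours, 1 with the spike-in covariate and 1 to 2 without each array. Leaving out an array also leaves fewer samples, the spike-in covariate adds a term to the fit, and no filter means more genes tested. Other causes were not tested. No member fell under any of these settings. PRPH was past the threshold in 12 of 13 alternatives, NEFM in 7, NEFL in 5 and INA in 5. Of the partner genes 2 rose; the count was 0 with no filter, 1 with the spike-in covariate and 1 to 2 without each array (KIF5C and DYNC1H1 without 192 h), and 0 fell, or 0 to 1 without each array (HSPB1 without 0 h, LBR without 192 h). At the mean of probe sets the partner past the threshold was DST, not a kinesin. Over all tested genes the split was 241 up and 174 down, and 196 up and 233 down once array medians were equal. With an array left out, the fitted change of SYNM ran from -0.13 (without 0 h) to 0.73, of NES from -0.12 (without 192 h) to 0.25 and of VIM from -0.65 to 0.13 (without 192 h), so each turned its sign. LMNA and LMNB1 kept their sign in all 13 alternatives, with changes of 0.17 to 0.92 and -0.74 to -0.044. The fitted difference of NEFL and NEFM was -0.028 with hours and -0.14 to 0.20 without each array. At least 1.5-fold above 0 h were 3 genes at 24 h and 3 at 96 h, and 1 below at 96 h, with array medians set equal, against 1, 5 and 0. No paired analysis was possible because each time point has 1 array. The 4 untested probe sets, both of NEFH and 1 each of NEFM and NES, had mean signals of at most 8.26, under the filter. Their changes were not tested.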
